A study of Caenorhabditis elegans with 2 samples.

Results

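The aminoacyl-tRNA synthetase genes of Caenorhabditis elegans were taken as the nuclear protein-coding genes of the Ensembl annotation of WBcel235 whose name is a letter followed by "ars-1" or "ars-2". The rule gave 31 of 19973 nuclear protein-coding genes, of which 20 carry the suffix -1 and 11 the suffix -2. The experiment was chromatin immunoprecipitation followed by sequencing of the tagged protein F33H1.4, in 1 group of 2 biological replicates, with no second genotype, treatment or stage. The animals were whole young adults of 62.5 hours, of strain RW12303 with the allele st12303[F33H1.4::TY1::EGFP::3xFLAG] II, a CRISPR insertion at F33H1.4, and cultures had been synchronised as starved L1 larvae after bleaching. Chromatin sheared by sonication to 200 to 800 bp was precipitated with an antibody against GFP, so the lists mix all tissues of the animal and show places of tagged protein, not its effect on a gene. No library of an untagged strain and no input library was analysed here, and the read depth behind the lists is not given in the files used here.

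Aminoacyl-tRNA synthetases join each amino acid to its tRNA, the step that sets which amino acid a codon is read as. Animal cells translate in the cytosol and in mitochondria. Many amino acids have a separate synthetase gene for each place, while some, such as those for glycine and lysine in animals, have a single gene that serves both. In worms the suffix -1 mostly names the cytosolic enzyme and -2 the mitochondrial one. Alanine is the exception in the RefSeq descriptions, which call aars-1 mitochondrial and aars-2 cytoplasmic. RefSeq described 9 of the 20 suffix -1 genes as cytoplasmic, 1 as mitochondrial and 10 without a place. Of the 11 suffix -2 genes, 3 (ears-2, pars-2 and rars-2) were described as mitochondrial, 1 as cytoplasmic and 7 without a place.

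Sequences of 101 bp centred on the strongest summit are shown first, because a pair of words recurred in some of them. They were read from the RefSeq genome WBcel235, plus strand, 5′ to 3′, in lower case. Capitals mark the words GAGACCC and GCGCCTTTA, or their reverse complements GGGTCTC and TAAAGGCGC where the pair lies on the minus strand. The summits of hars-1 (chrIV:10858460-10858560), iars-1 (chrIV:10367986-10368086), pars-1 (chrIII:7238060-7238160) and tars-1 (chrII:11695504-11695604) hold both words. A stronger summit inside the tars-1 peak (chrII:11695301-11695401), which lies past the promoter window of tars-1, holds them again. The summits of ears-2 (chrIV:390439-390539) and rars-1 (chrIII:4918095-4918195) hold neither word exactly, and only exact words were searched or marked. Neither word was found at the summits of aars-2, mars-1 and vars-1, and that of fars-1 holds GCGCCTTTA alone. The sequences of those genes are not shown. The rars-1 line has taaaggtgc and then gggtttc, which differ from TAAAGGCGC and GGGTCTC by a single letter each. The ears-2 line has caaaggcgc, which differs from TAAAGGCGC by a single letter. Such near matches were not counted at other summits or in the genome. No share can therefore be set beside them, and they are not counted as carrying a word.
hars-1: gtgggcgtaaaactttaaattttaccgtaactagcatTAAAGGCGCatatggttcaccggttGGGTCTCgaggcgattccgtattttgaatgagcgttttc
iars-1: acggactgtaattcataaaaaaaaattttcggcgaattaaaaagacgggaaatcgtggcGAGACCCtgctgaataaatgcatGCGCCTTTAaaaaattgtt
pars-1: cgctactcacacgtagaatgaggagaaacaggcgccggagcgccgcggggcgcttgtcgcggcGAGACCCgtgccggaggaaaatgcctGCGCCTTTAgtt
tars-1: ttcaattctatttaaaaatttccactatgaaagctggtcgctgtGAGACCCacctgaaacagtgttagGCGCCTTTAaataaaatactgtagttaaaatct
tars-1 stronger summit: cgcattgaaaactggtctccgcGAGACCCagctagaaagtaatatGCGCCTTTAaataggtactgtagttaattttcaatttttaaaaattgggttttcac
ears-2: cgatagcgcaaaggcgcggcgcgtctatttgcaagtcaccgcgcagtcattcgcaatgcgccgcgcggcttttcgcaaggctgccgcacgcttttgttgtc
rars-1: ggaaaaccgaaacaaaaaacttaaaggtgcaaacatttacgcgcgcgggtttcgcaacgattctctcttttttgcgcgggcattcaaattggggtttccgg

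Both words on 1 strand, with GAGACCC first and their starts no more than 50 bp apart, stood within 50 bp of 4 of the 10 synthetase summits. The words were picked by reading these same summits, so that count is a description of where they came from and no support for them. At the other promoter summits of the series list, 83 of 2020 (4.11%) held the pair, and over all promoter summits 87 of 2030 (4.29%). Apart from the stronger tars-1 summit, those others had no part in the choice. That summit is counted among them because it lies in the promoter window of xpf-1. Windows of the same length moved 300 bp to the left or right of those summits held it in 0 of 2030 on each side. Along the nuclear genome 238 of 992797 windows of that length held it (0.024%). The 1220 summits outside promoters held it in 23 (1.89%), and windows beside those were not searched.

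In hars-1 and iars-1, and again at the stronger summit of tars-1, the starts of the 2 words were 23 bp apart. At the promoter summit of tars-1 they were 24 bp apart and in pars-1 26 bp. Genome-wide 325 pairs were found, and spacings of 23 bp (156 pairs) and 26 bp (88 pairs) were the most frequent. At promoter summits with the pair the order was reversed, with 26 bp at 38 summits and 23 bp at 29. Of the 325 pairs, 110 (33.8%) lay within 50 bp of a summit of the series list. At the promoter summits, the centre of the pair was 2 bp from the summit in hars-1, 10 bp in tars-1, 24 bp in iars-1 and 30 bp in pars-1. These 4 lay to the right on the plus strand, while at the stronger summit of tars-1 the centre was at -13 bp, to the left. Over all promoter summits with the pair, its centre lay on both sides, from -32 to 33 bp. The search reached only 50 bp to each side of a summit, so these distances could not have been much larger. Promoter peaks with the pair had a median signal percentile of 86.6 (n = 87, the 4 synthetase summits among them), and those without it 58.5 (n = 1943), the percentile being the share of peaks of a list ranked below a peak by the deposited signal.

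Searched over whole promoter windows, the pair occurred within the promoter windows of 5 of the 31 synthetase genes, hars-1, iars-1, pars-1, qars-1 and tars-1. Over all protein-coding genes 199 held it (0.996%). The words were read from the summits of hars-1, iars-1, pars-1 and tars-1, so these 4 have a peak by that choice and their count shows nothing about the pair. The remaining gene, qars-1, which encodes the glutaminyl-tRNA synthetase, had the pair and no promoter summit in any thresholded list. Over all protein-coding genes, with the synthetase genes among them, a promoter peak was present for 156 of 199 with the pair (78.4%) and 12.1% of those without it. Genes with overlapping windows can share a pair and a peak, and the peak was not required to lie at the pair. Of 7 further words searched, GAGAGA stood at the rars-1 summit and CCGCCC at the aars-2 summit, against 10.3% and 4.24% of all promoter summits. The other words were at 0 of the 10 synthetase summits, both strands searched. Over all promoter summits CACGTG was at 2.46%, TTCGCGC at 7.19%, TATAAA at 4.04%, CTGCGTC at 6.26% and TTTCTTT at 5.57%. A word match is a description of letters and not a binding site. GC content had a median of 43.1% (24.8 to 64.4%) over the 10 synthetase summits and 44.6% over all promoter summits.

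A gene was given a promoter peak where a summit lay from 1000 bp upstream to 200 bp downstream of any annotated 5′ end of its protein-coding transcripts. In the series list, which the authors made from both replicates, 10 of the 31 synthetase genes had one (32.3%, exact binomial 95% interval 16.7 to 51.4%, which covers counting error only). Over all protein-coding genes the share was 12.8%, and over autosomal genes 14.5%. The count depended on the window: from 500 bp upstream to 100 bp downstream, 5 of 31 had a peak (16.1%, against 10.2% of all genes). The list of replicate 1 gave a peak to 9 synthetase genes (29%, against 9.95% of all genes), and that of replicate 2 also to 9 (29%, against 12% of all genes). A peak in both replicate lists was found for 8 (25.8%, against 9.36%). The conservative list, a second list made from both replicates, gave 12 (38.7%, against 12.5%). No synthetase gene lies on chromosome X, where 1.57% of genes had a promoter peak. At the share of each member's own chromosome, 16.9% of the members would have had a peak, which is 5.23 genes.

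The suffix -1 genes had a promoter peak in the series list for 8 of 20 (40%, interval 19.1 to 63.9%), and the suffix -2 genes for 2 of 11 (18.2%, interval 2.28 to 51.8%), against 12.8% of all genes. Each replicate list on its own gave 7 of 20 (35%) for suffix -1 and 2 of 11 (18.2%) for suffix -2, against 9.95% of all genes in replicate 1 and 12% in replicate 2. Peaks in both lists were found for 6 of 20 (30%) and 2 of 11 (18.2%), against 9.36% of all genes. The intervals overlap over most of their length. The difference was not tested, because genes of 1 experiment are not replicates of it. By the RefSeq descriptions, 5 of 10 genes called cytoplasmic had a peak (50%), 1 of 4 called mitochondrial (25%) and 4 of 17 with no place given (23.5%), against 12.8% of all genes in the same series list. The higher share of suffix -1 depended on the window and on how a summit is given to a gene. In the window from 500 bp upstream to 100 bp downstream the order turned, with 3 of 20 suffix -1 genes (15%) and 2 of 11 suffix -2 genes (18.2%), against 10.2% of all genes. When each summit was given only to the gene with the nearest 5′ end, 4 of 20 suffix -1 genes (20%, interval 5.73 to 43.7%) and 2 of 11 suffix -2 genes (18.2%) had a peak, 6 of 31 in all (19.4%), against 9.23% of all genes. The 4 genes lost, fars-1, hars-1, iars-1 and rars-1, had the highest signals of the 10.

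**Figure D1:**
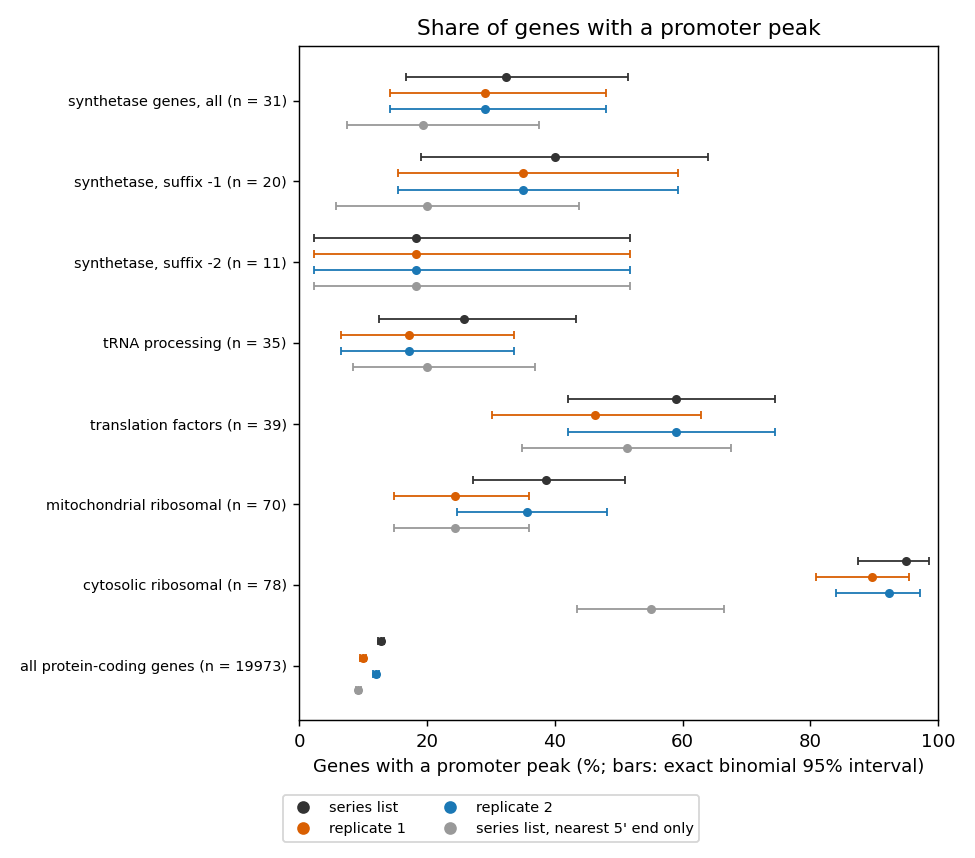
Percent of genes with a promoter peak (horizontal axis) for the synthetase genes, their suffix groups, other translation lists and all protein-coding genes, by list and by assignment of summits. Points are shares and bars exact binomial 95% intervals, and suffix -1 stands at 40% in the series list and at 20% under assignment to the nearest 5′ end, with suffix -2 at 18.2% in both.

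By series signal, fars-1, hars-1, iars-1, rars-1 and pars-1 ranked above the suffix -2 genes ears-2 and aars-2, while tars-1, vars-1 and mars-1 ranked below both. The gene fars-1 encodes a phenylalanyl-tRNA synthetase and lies on chromosome I. Its summit had a signal of 415.4 in replicate 1, 720.4 in replicate 2 and 1129.2 in the series list, where it ranked 272 of 3250 peaks (percentile 91.6). The signal is the authors' and has no stated scale between lists, so lists are compared by percentile, 86.5 in replicate 1 and 90.7 in replicate 2. The peak (chrI:6215413-6215750) lies 889 bp upstream of fars-1 and 153 bp upstream of rbm-5, a gene for an RNA-binding protein, within a non-coding exon part of T08B2.15. Only the second of the words of the pair, GCGCCTTTA, was found there. That word stood at 257 of all 2030 promoter summits (12.7%).

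The histidyl-tRNA synthetase gene hars-1 had a signal of 423.3 in replicate 1 (percentile 87.1), 510.2 in replicate 2 (85.1) and 926.1 in the series list (88.7, rank 369). The 3 percentiles are within a few points of each other. The peak (chrIV:10858364-10858663) is intergenic, 447 bp upstream of hars-1 and 14 bp upstream of its divergent neighbour T11G6.2, whose 5′ end is 461 bp away. The isoleucyl-tRNA synthetase gene iars-1 had 248.1 in replicate 1 (74.5), 404.2 in replicate 2 (80.6) and 657.6 in the series list (83.7, rank 529). Its intergenic peak (chrIV:10367830-10368207) lies 565 bp upstream of iars-1 and 246 bp upstream of the divergent gene pges-2, named for a prostaglandin E synthase. Which of the 2 divergent genes a summit serves cannot be told from a peak list.

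The arginyl-tRNA synthetase gene rars-1 had a signal of 206.0 in replicate 1 (percentile 69.7), 415.4 in replicate 2 (81.1) and 621.3 in the series list (82.6, rank 565). Its peak (chrIII:4918016-4918296) lies 968 bp upstream, on the far side of rpb-8, a subunit gene of RNA polymerases on the same strand, and 137 bp upstream of rpb-8. The prolyl-tRNA synthetase gene pars-1 had 193.8 in replicate 1 (68.0), 385.3 in replicate 2 (79.8) and 573.7 in the series list (81.5, rank 603). Its intergenic peak (chrIII:7237974-7238253) is also far upstream, by 917 bp. Here pars-1 itself has the nearest 5′ end, and the neighbour ndus-8 starts 4825 bp away. Both genes ranked higher in replicate 2 than in replicate 1.

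Among the suffix -2 genes, ears-2 encodes the mitochondrial glutamyl-tRNA synthetase. Its signal was 133.1 in replicate 1 (percentile 55.9), 232.5 in replicate 2 (69.7) and 368.2 in the series list (73.2, rank 871). The peak (chrIV:390373-390606) lies 21 bp upstream of ears-2, the closest of the 10 summits to its gene, in the 92 bp between ears-2 and the divergent gene uncp-18. The alanyl-tRNA synthetase gene aars-2, cytoplasmic by its description, had 90.4 in replicate 1 (40.6), 139.5 in replicate 2 (56.5) and 235.4 in the series list (62.9, rank 1205). Its peak (chrI:3982818-3982993) is intergenic, 271 bp upstream, and no other gene's window holds it. Of the genes RefSeq calls mitochondrial, ears-2 alone had a promoter peak in a thresholded list.

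The threonyl-tRNA synthetase gene tars-1 had a signal of 78.3 in replicate 1 (percentile 33.3), 115.7 in replicate 2 (49.7) and 201.6 in the series list (58.1, rank 1361). This summit lies 103 bp downstream of the 5′ end, in an intron of tars-1 and of kel-1, which overlaps it on the other strand, and 617 bp upstream of xpf-1, a DNA repair nuclease gene. The interval (chrII:11695141-11695712) is 572 bp wide. It holds a second summit, 306 bp downstream of the 5′ end and so outside the window, with a series signal of 1217.4 (percentile 92.6). That summit is stronger than the promoter summit of any synthetase gene, and each of the 2 summits has its own copy of the word pair.

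The valyl-tRNA synthetase gene vars-1 was below the threshold in replicate 1 (unthresholded signal 53.3, score 262), had 56.5 in replicate 2 (percentile 14.1) and 115.4 in the series list (34.1, rank 2142). The summit of its peak (chrV:8031125-8031464) lies 116 bp upstream, in the 197 bp after oma-2, a gene for an oocyte zinc finger protein on the same strand. The methionyl-tRNA synthetase gene mars-1 was in neither thresholded replicate list and had 85.8 in the series list (16.6, rank 2710). Its peak (chrIV:11635651-11635990) lies 334 bp upstream, and the unthresholded entries had signals of 38.5 in replicate 1 and 59.8 in replicate 2. These were the weakest of the 10, and the 2 that did not hold in both replicates. Beyond the series list, the asparaginyl-tRNA synthetase gene nars-1 had a summit in the conservative list (120.4, percentile 34.5) and in replicate 1 (53.9, percentile 10.8). The tyrosyl-tRNA synthetase gene yars-2 had one in the conservative list only (79.7, percentile 11.7), 1 bp downstream of a 5′ end.

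**Figure D2:**
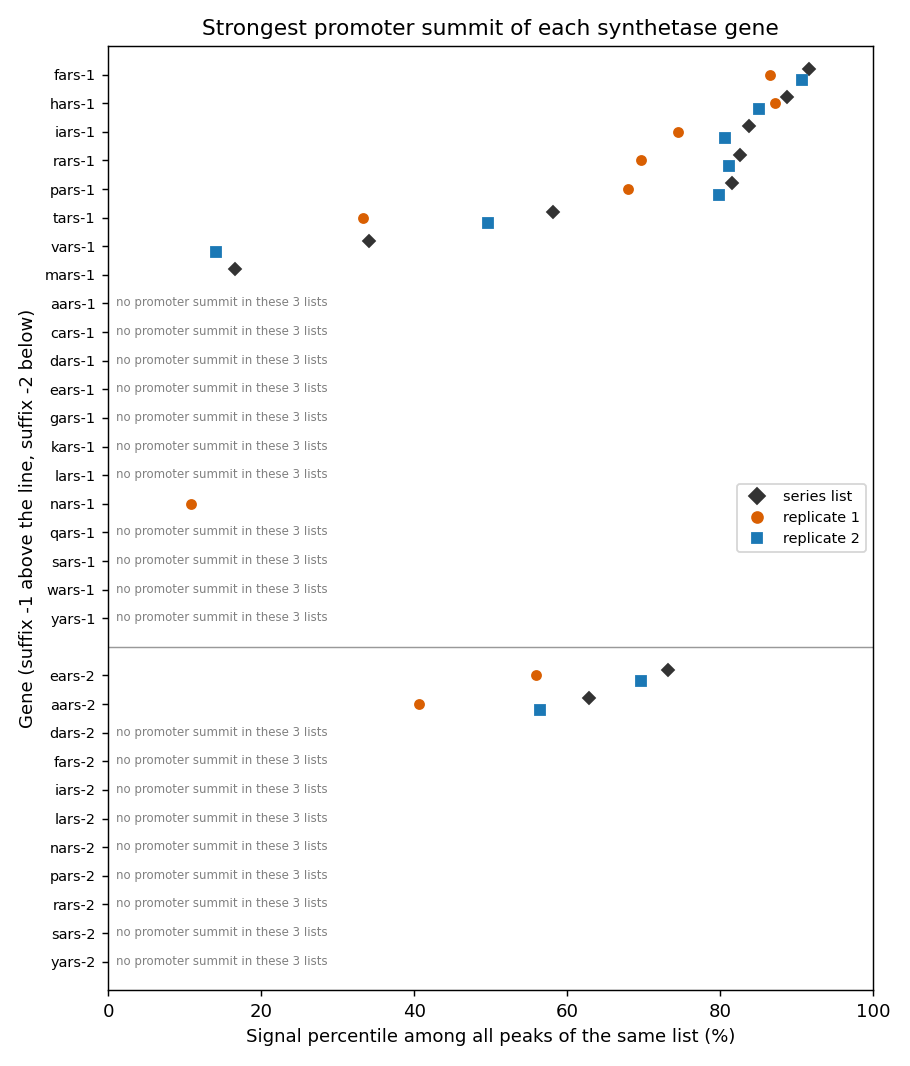
Signal percentile of the strongest promoter summit of each of the 31 synthetase genes in the series list and in each replicate list (horizontal axis, percent of peaks of the same list ranked below it). Suffix -1 genes stand above the line and suffix -2 genes below it, and fars-1, hars-1, iars-1, rars-1 and pars-1 lie above 80 in the series list.

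Over the 10 genes the median series percentile was 77.3 (16.6 to 91.6), against 66.9 over all 2547 genes with a promoter peak. The medians in replicate 1 were 68.0 over 9 synthetase genes and 62.9 over all genes with a peak, and in replicate 2 they were 79.8 and 64.0. In the conservative list, with its 2 further weak peaks, the median was 67.2 over 12 synthetase genes and 66.6 over all genes with a peak. The suffix -1 median was 82.0 (n = 8) and the suffix -2 median 68.1 (n = 2). These medians are over genes that passed a threshold and describe those genes only.

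The replicates placed the summits of the 8 genes found in both lists at a median distance of 14 bp from each other, and at most 29 bp (rars-1). Over all 1869 genes with a peak in both, the median was 10 bp. The signal of replicate 2 over that of replicate 1 was 1.21 in hars-1, the lowest, and 2.02 in rars-1, the highest, with a median of 1.68 against 1.49 over all such genes. The depth and the scaling of the 2 lists are not given in the files used here, and their part in this ratio was not tested.

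**Figure D3:**
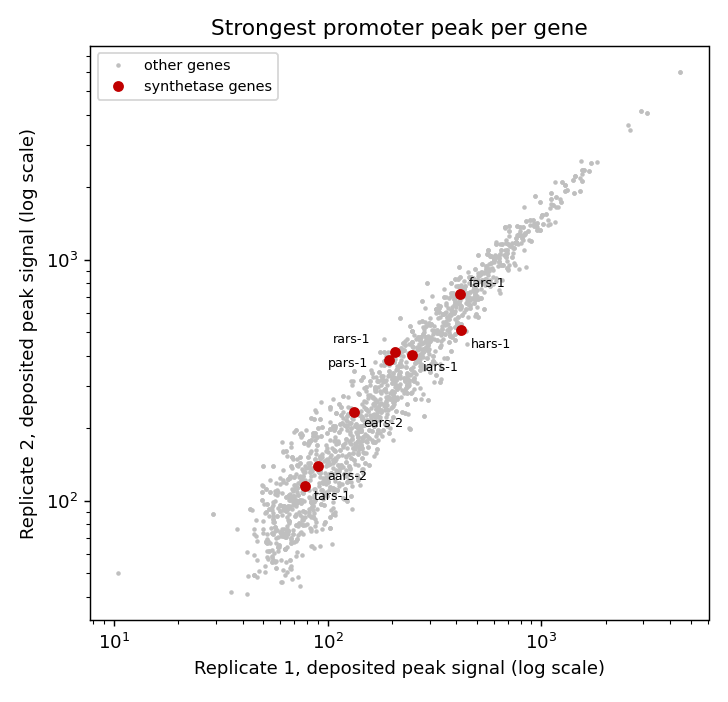
Signal of the strongest promoter peak per gene in replicate 1 (horizontal axis) and replicate 2 (vertical axis), both as deposited and on log scales, for the 1869 genes with a peak in both lists. The 8 synthetase genes lie within the band of the other genes, from tars-1 (78.3 and 115.7) to fars-1 (415.4 and 720.4).

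The remaining 19 synthetase genes had no promoter summit in any thresholded list. They are the suffix -1 genes aars-1, cars-1, dars-1, ears-1, gars-1, kars-1, lars-1, qars-1, sars-1, wars-1 and yars-1 and the suffix -2 genes dars-2, fars-2, iars-2, lars-2, nars-2, pars-2, rars-2 and sars-2. The unthresholded replicate lists, which include entries that the authors did not keep, gave 25 of 31 synthetase genes an entry in replicate 1 (80.6%, against 41.4% of all genes) and 24 in replicate 2 (77.4%, against 40.1%). By suffix these were 17 of 20 in each replicate for -1 (85%), and for -2 8 of 11 in replicate 1 (72.7%) and 7 of 11 in replicate 2 (63.6%). No entry in either list was found for dars-2, lars-1, lars-2, nars-2, wars-1 and yars-1. The seryl-tRNA synthetase gene sars-1 came closest to the threshold, with a score of 829 in replicate 2, where the lowest score kept was 830, and a score of 75 in replicate 1. The mitochondrial alanyl-tRNA synthetase gene aars-1 had weak entries in both replicates, with signals of 36.5 and 27.4 and scores of 317 and 105. Outside the windows, iars-2 had a thresholded summit within the gene, 4232 bp downstream of its 5′ end, with a series signal of 102.0. With no peak in a list, weak or no binding and too few reads cannot be told apart.

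Summits of synthetase genes lay at a median position of -390.5 bp from the closest 5′ end (range -968 to 103, negative being upstream), and 9 of 10 were upstream. Over all 2547 genes with a promoter peak the median position was -243 bp and 94.1% were upstream. More than 500 bp separated the summit from the gene in 4 of 10 synthetase genes (40%), against 20.1% of all genes. Another gene shared the summit in 7 of 10 (70%), against 55.7%, and the synthetase gene itself had the nearest 5′ end in 6 (60%), against 70.5%. For those 6, aars-2, ears-2, mars-1, pars-1, tars-1 and vars-1, the median position was -193.5 bp.

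**Figure D4:**
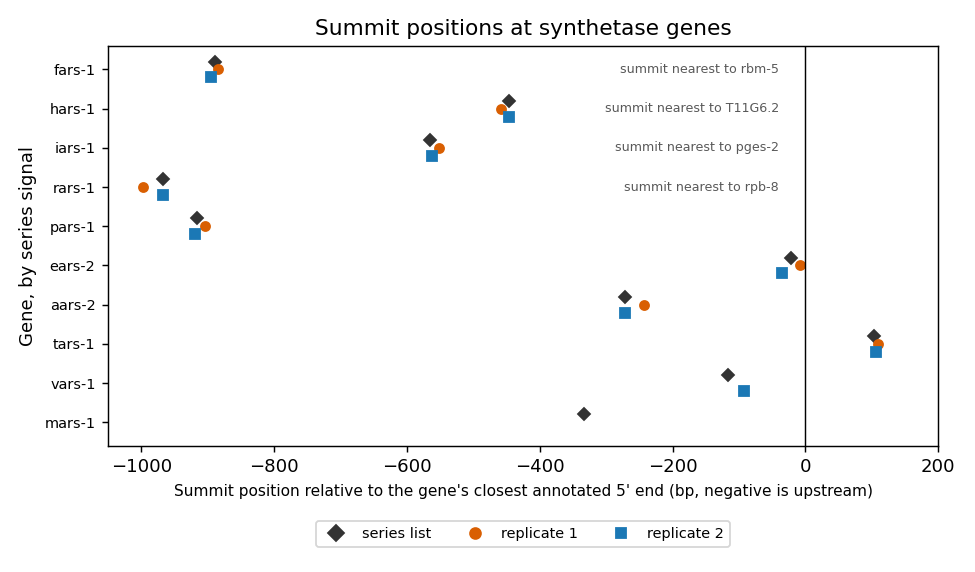
Position of the strongest promoter summit of the 10 synthetase genes relative to the closest annotated 5′ end (horizontal axis, bp), in the series list and each replicate list, in order of series signal. The summits of fars-1, hars-1, iars-1 and rars-1, named with the gene whose 5′ end is nearer, lie between -968 and -447 bp, and replicate points differ by no more than 29 bp.

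Gene arrangement differs among the members. A divergent neighbour within 1000 bp was present for 10 synthetase genes, and 3 of them had a promoter peak (ears-2, hars-1 and iars-1), against 33.4% of all genes so arranged. A same-strand neighbour within 500 bp was present for 9, of which rars-1 and vars-1 had a peak, against 11.4% of such genes. The neighbour overlapped the 5′ end in 3, of which fars-1 and tars-1 had a peak, against 10.4%. With none of these, 3 of 9 had one (aars-2, mars-1 and pars-1), against 7.34%. By chromosome, a peak was present for 4 of 8 synthetase genes on IV, 2 of 9 on I, 2 of 6 on III, 1 of 4 on II and 1 of 4 on V. The shares of all genes there were 14.4%, 21%, 22.8%, 13.5% and 7.23%.

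Synthetases act on tRNAs, and 612 tRNA genes are annotated, so the distance of each summit to the nearest tRNA gene was measured. None of the 10 synthetase summits lay within 1000 bp of one, and the closest, that of fars-1, was 51310 bp away. Of all 2030 promoter summits, 40 (1.97%) lay within 200 bp and 46 (2.27%) within 1000 bp. With 10 summits, a share of that size would not be seen.

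Other genes of translation gave the following counts in the series list, where 12.8% of all genes had a promoter peak. The list for tRNA processing and modification had a peak in 9 of 35 (25.7%), with signal percentiles of 2.8 to 88.0. Each replicate list gave it 6 (17.1%), against 9.95% of all genes in replicate 1 and 12% in replicate 2. Translation initiation and elongation factors had one in 23 of 39 (59%), mitochondrial ribosomal protein genes in 27 of 70 (38.6%) and cytosolic ribosomal protein genes in 74 of 78 (94.9%). In replicates 1 and 2 the last 3 lists had 18 and 23 of 39, 17 and 25 of 70, and 70 and 72 of 78. Under assignment to the nearest 5′ end the series counts became 7 of 35 (20%), 20 of 39 (51.3%), 17 of 70 (24.3%) and 43 of 78 (55.1%), against 9.23% of all genes. Mitochondrial translation factors, a list of 5 genes, had a peak in 3 (60%) in the series list. Under assignment to the nearest 5′ end they had one in 2 (40%). The further phenylalanyl synthetase gene fars-3 had none. Of the genes that sense uncharged tRNA, gcn-2, the kinase that binds it in yeast, had 80.8 in the series list and 57.6 in replicate 2 and was absent from the list of replicate 1. Its partner gcn-1 had 158.3 in the series list, 65.8 in replicate 1 and 88.3 in replicate 2, and atf-4, a transcription factor gene translated in mammals when that kinase is active, had none. The word pair stood at 5 of 71 summits of cytosolic ribosomal protein genes (7.04%), 1 of 26 of mitochondrial ones (3.85%), 2 of 23 of translation factors (8.7%) and 0 of 9 of the tRNA processing list, against 4.29% of all promoter summits.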

How the data were processed

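Peak lists of 2 biological replicates of 1 tagged strain were analysed. The build is ce11 per the labels, and no peak end exceeded the chromosome lengths of WBcel235. Neither aligner nor peak caller is given in the sources used here. The deposited signal of each peak served to rank the peaks of a list, and the deposited score, at least 830 in the thresholded lists, to describe entries below that threshold, and both were computed by the authors. The series list holds 3250 peaks, that of replicate 1 holds 2219 and that of replicate 2 holds 2733. Windows were placed on 29314 annotated 5′ ends of Ensembl release 115. The 31 members, the gene lists and the 7 words were chosen with earlier results of these data known, and the words GAGACCC and GCGCCTTTA after the members' summit sequences were read. All members are named, the 10 with a series peak in full, and other genes only as neighbours, as the nearest 5′ end or from the tRNA sensing and further synthetase lists. No test was run over members. The assignment was tested on simulated data. Alternatives were other lists, windows, overlaps, assignments and suffix definitions. Python 3.11.15, numpy 2.4.6, scipy 1.17.1 and matplotlib 3.10.9 were used.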

Additional observations from a re-analysis of the deposited data

How the results depend on the processing

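Of the alternatives run, 2 moved the count of 10 synthetase genes with a promoter peak by over 1.5 times. A window from 500 bp upstream to 100 bp downstream left 5, losing fars-1, iars-1, pars-1, rars-1 and tars-1, beside 10.2% of all genes, and assignment to the nearest 5′ end left 6. For suffix -1 these gave 3 (15%) and 4 (20%) of 20 in place of 8, and for suffix -2 both gave 2 of 11 (18.2%), so the narrower window put suffix -1 below suffix -2. Grouping by RefSeq description in place of the suffix gave 5 of 10 for genes called cytoplasmic, with aars-2 among them. For genes called mitochondrial, with aars-1 among them, it gave 1 of 4. Leaving out each replicate in turn meant using the other replicate's own list, as counted above, and no peaks were called anew. This gave 9 and 9 in all, 7 and 7 for suffix -1 and 2 and 2 for suffix -2. Without replicate 1 mars-1 was lost, and without replicate 2 mars-1 and vars-1 were lost and nars-1 gained. The conservative list gave 12 (12.5% of all genes), the stronger 50% of the list 8 (8.52%), peaks overlapped by both replicates 8 (9.29%, and 8 again at 50% reciprocal overlap, 8.01%) and 2000 bp upstream 11 with iars-2 added (15.6%). A window ending at the 5′ end gave 9 without tars-1 (12.4%), outermost 5′ ends 10 (12.1%) and any overlap of the peak 10 (13.3%). A window to 400 bp downstream, added after the stronger tars-1 summit had been seen, gave 10 (13%). No paired analysis was possible because there is 1 group. With 31 genes, 1 group and no depth, the intervals are wide and those of the suffix groups overlap. A list gives no binding strength below its threshold.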
